A study of Mus musculus with 6 samples.

Results

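The genes examined here code for the subunits of RNA polymerases I, II and III. They are the rows of the deposited table whose symbol starts with Polr1, Polr2 or Polr3 followed by a letter, pseudogenes left out: 31 of 16095 genes, with 8 Polr1, 13 Polr2 and 10 Polr3 symbols. Of the 31, Polr1has carries the symbol form of an antisense transcript of Polr1h and is no subunit, and Polr2m codes for a protein that binds polymerase II and is not part of its core. All others code for subunits. RNA was sequenced from sorted kidney epithelial cells in 6 libraries. In 3 of them, called Terf1_flox, both copies of Trf1 (gene Terf1, a protein of the shelterin complex on telomeres) were flanked by loxP sites (Trf1lox/lox); the other 3, called control, were Trf1+/+. Mice of both groups carried a tamoxifen-inducible Cre under the Ksp-cadherin (Cdh16) promoter, active in tubule epithelium, and a fluorescent reporter (KFP+/t Cre+/t). Both groups received tamoxifen 3 times a week for 8 weeks from 6 to 8 weeks of age. Mice of both sexes were used. The labels do not say how many mice went into a library, and n is therefore the number of libraries.

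RNA polymerase I transcribes the large ribosomal RNA precursor in the nucleolus, polymerase II transcribes messenger RNAs and many small nuclear RNAs, and polymerase III transcribes transfer RNAs, the 5S ribosomal RNA and other short RNAs. Each enzyme has a pair of large subunits that form the catalytic cleft and a set of smaller ones around them. Some small subunits are common to all 3 enzymes, a further pair is common to polymerases I and III, and the rest belong to a single enzyme. The values below are transcript levels and do not measure the assembled enzymes.

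Reads per library came to 13870931 to 15375471 in Terf1_flox and 13582140 to 17680986 in control. Terf1 was at 62.0, 24.6 and 25.3 normalized counts in Terf1_flox libraries, against 529.6, 486.1 and 663.9 in control libraries, -3.99 ± 0.61 on the log2 scale (fold change ± standard error; limma adjusted p = 0.0814, exact two-sided permutation p = 0.1, the smallest that 3 against 3 libraries allow). All 10 markers of distal nephron epithelium were present, and their summed level was 187215 to 237519 in Terf1_flox and 245189 to 295246 in control libraries. Of the 10, 2 lay below control in all Terf1_flox libraries (10.8% of all genes tested) and 1 above (10.3%), and the rest overlapped. The sorting marker Epcam, among those below, was at 1434 to 2977 in Terf1_flox and 4416 to 5087 in control libraries. Cdh16 overlapped, at 4063 to 4767 in Terf1_flox and 4540 to 7152 in control libraries. Summed markers of other cells were low and overlapped between the groups. Proximal tubule markers (5 of 6 with a row) came to 446 to 1714 in Terf1_flox and 237 to 874 in control libraries, leukocyte markers (4 of 7) to 28.3 to 166 in Terf1_flox and 29.5 to 80.9 in control, fibroblast and pericyte markers (1 of 6) to 3.04 to 15.2 in Terf1_flox and 1.76 to 14.2 in control, and erythroid markers (4 of 5) to 151 to 554 in Terf1_flox and 190 to 746 in control. The table used here has no row for the 5 endothelial and 4 podocyte markers. The part of the markers in the results below was not tested. Fewer cells of a type and less RNA per cell cannot be told apart in such libraries.

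Polr2k, Polr2j, Polr2m and Polr2c had the smallest p-values of the 31 genes, and promoter sequences are shown for those of the 4 that RefSeq's promoter table holds (build GRCm38.p6; 22 of the 31 symbols matched). Each window runs from 250 bases before to 50 bases after a start. Capitals mark matches on either strand. The ETS motif was searched as CCGGAAG, the SP1 box by its letters GGGCGG, the CCAAT box as named, the TATA box as the run TATAAA, and YY1 sites with the letters AAGATGGCG. The NRF1 consensus was searched as well, and no matches overlapped in the members' windows. Polr2m has 2 annotated starts. The windows are chr5:136116441-136116740 (plus strand) for Polr2j, chr8:94857200-94857499 (plus) for Polr2c, and chr9:71485934-71486233 and chr9:71484909-71485208 (both minus) for Polr2m, in this order.
Polr2j: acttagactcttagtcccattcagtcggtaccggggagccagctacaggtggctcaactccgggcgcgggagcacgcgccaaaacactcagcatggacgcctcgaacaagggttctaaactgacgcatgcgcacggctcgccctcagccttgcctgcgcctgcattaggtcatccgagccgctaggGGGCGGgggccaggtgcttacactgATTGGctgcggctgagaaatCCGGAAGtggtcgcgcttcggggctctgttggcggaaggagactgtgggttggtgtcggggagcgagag
Polr2c: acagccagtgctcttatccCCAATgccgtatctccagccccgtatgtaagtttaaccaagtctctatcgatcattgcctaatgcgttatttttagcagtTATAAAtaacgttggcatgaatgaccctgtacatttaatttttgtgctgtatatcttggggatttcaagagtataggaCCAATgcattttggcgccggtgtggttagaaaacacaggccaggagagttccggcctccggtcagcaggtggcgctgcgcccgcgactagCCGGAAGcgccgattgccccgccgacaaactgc
Polr2m, upstream start: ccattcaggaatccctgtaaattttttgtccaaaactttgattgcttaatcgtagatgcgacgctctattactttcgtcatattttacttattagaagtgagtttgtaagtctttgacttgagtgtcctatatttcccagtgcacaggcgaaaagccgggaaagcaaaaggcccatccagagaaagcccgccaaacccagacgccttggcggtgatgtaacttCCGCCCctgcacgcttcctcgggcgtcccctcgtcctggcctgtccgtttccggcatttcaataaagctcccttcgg
Polr2m, downstream start: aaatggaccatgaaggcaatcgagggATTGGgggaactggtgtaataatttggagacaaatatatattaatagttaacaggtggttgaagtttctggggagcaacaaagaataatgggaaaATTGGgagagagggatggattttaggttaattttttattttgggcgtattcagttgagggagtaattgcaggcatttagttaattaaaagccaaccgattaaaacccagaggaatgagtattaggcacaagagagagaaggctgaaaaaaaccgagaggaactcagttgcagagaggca

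The window of Polr2j had a GC content of 62.7% and held the ETS motif, the SP1 box and the CCAAT box. That of Polr2c had 50.0% GC and held the ETS motif, the TATA box and the CCAAT box. The upstream and downstream windows of Polr2m had 48.7% and 39.3% GC; the upstream window held the SP1 box and the downstream window the CCAAT box. Of the 24 windows of the 22 genes with an entry, 7 held the ETS motif, 15 (in 14 genes) the SP1 box, 7 the CCAAT box and 2 the TATA box. Median GC content was 60.0% in these windows and 52.7% over all windows. Of all 32851 windows in the table, 8.86% held the ETS motif, 35.7% the SP1 box, 37.4% the CCAAT box and 13.6% the TATA box. NRF1 and YY1 matches were in no window of these genes, and in 0.971% and 1.4% of all windows. A match is a description of the letters only.

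Among polymerase subunit genes, Polr2k and Polr2j had higher and Polr2m and Polr2c lower values in all Terf1_flox libraries than in any control library. Whether they counted as changed depended on the test. No polymerase gene passed limma's test over all 14822 genes with a mean of at least 10 normalized counts (adjusted p below 0.05, Benjamini-Hochberg), and neither did any other gene (0% called; 2095 genes, 14.1%, had an unadjusted p below 0.05). All 31 genes were above that minimum. At an unadjusted p below 0.05 limma had 2 of the 31 higher in Terf1_flox (5.7% of all genes) and 3 lower (8.43%), while edgeR's quasi-likelihood test on recovered reads called 0 after adjustment and had 5 members, and 13.4% of all genes, below 0.05 unadjusted. DESeq2's Wald test called 4 of the 31 after adjustment, Polr2k and Polr2j higher and Polr2m and Polr2c lower. Of the 13278 genes with a DESeq2 adjusted p, it called 5.81%, with 2.47% higher and 3.34% lower. With limma on other settings, 0 of the 31 were among the 0.304% of genes called with equal library totals, the 0.054% with quantile normalization and the 0.0069% with length corrected. The 3 Terf1_flox values lay all above the 3 control values for 5 genes (10.3% of all genes) and all below for 7 (10.8%). Polr2k, Polr2j, Polr1h, Polr3k and Polr2f were those above, and those below included Polr2m, Polr2c, Polr2e, Polr1d, Polr1e and Polr3a. Of the 31 genes, 12 had a log2 fold change above 0 and the median was -0.22, against 47.2% above 0 and a median of -0.08 over all genes tested.

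**Figure D1:**
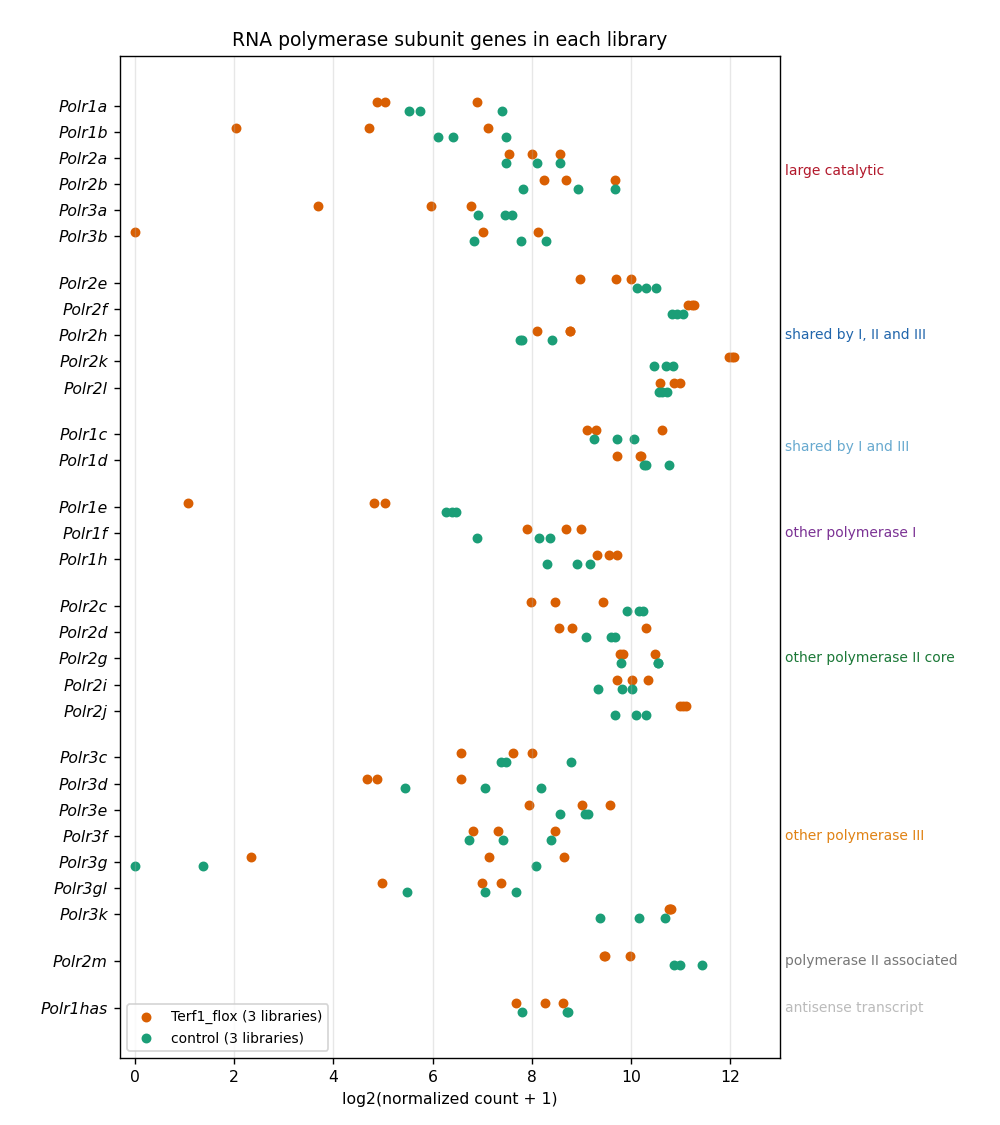
Level of 30 polymerase genes in the 3 Terf1_flox (upper, orange) and 3 control (lower, green) libraries, as log2 of the normalized count plus 1, ordered by role. Polr2k, Polr2j and Polr2m show separate groups of points; Polr3b is listed at 0 in Terf1_flox replicate 3 and Polr3g at 0 in control replicate 2.

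The subunits common to all 3 polymerases are Polr2e, Polr2f, Polr2h, Polr2k and Polr2l. Polr2k codes for a very small zinc-binding subunit that sits beside the assembly platform of each enzyme. It was at 4286, 4039 and 4209 normalized counts in Terf1_flox libraries, against 1829, 1400 and 1665 in control libraries. Every Terf1_flox library was thus above every control library, with a spread of 3.02% of the mean among the Terf1_flox libraries and 13.3% among the controls. The log2 fold change of Polr2k was 1.36 ± 0.22 (limma adjusted p = 0.0814 over all genes), a 2.57-fold difference, and 0.50 (limma adjusted p = 0.391) with GC content and transcript length corrected. Without that correction it passed with DESeq2 (adjusted p = 3.91e-06) and with limma where the minimum mean was 50 (adjusted p = 0.0272; 1.23% of genes called there). The GENCODE annotation lists a processed copy, Polr2k-ps, which has no row in the table, so reads shared with it cannot be separated.

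Polr2f, whose product joins the clamp and the stalk of each enzyme, was at 2259, 2450 and 2389 in Terf1_flox libraries, against 1821, 2102 and 1945 in control libraries. The groups did not overlap, and the log2 fold change was small, 0.28 ± 0.22 (limma adjusted p = 0.615). Polr2l, the other very small zinc-binding subunit, was at 1873, 2015 and 1540 in Terf1_flox libraries, against 1517, 1698 and 1566 in control libraries. Those groups overlapped (0.18 ± 0.24, limma adjusted p = 0.791). Polr2h, with the lowest normalized counts of the 5, was at 434.0, 273.0 and 434.2 in Terf1_flox libraries and 222.6, 216.4 and 337.1 in control libraries (0.55 ± 0.44, limma adjusted p = 0.623).

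Polr2e, which codes for a jaw subunit that contacts the DNA ahead of the enzyme, lay on the other side of 0. It was at 498.2, 832.3 and 1025 in Terf1_flox libraries, against 1444, 1118 and 1256 in control libraries, each Terf1_flox value below each control value (-0.75 ± 0.35 on the log2 scale, limma adjusted p = 0.378; -0.45 without Terf1_flox replicate 1). So 4 of the 5 shared subunits had log2 fold changes above 0 and 1 below, with a median of 0.28, which was 0.10 with equal library totals and 0.24 with quantile normalization. Their levels were steady between libraries: the median log2 SD was 0.20 in Terf1_flox and 0.18 in control, against 0.80 in Terf1_flox and 0.68 in control over all genes tested. Over the 4527 genes in the same range of mean level it was 0.48 in Terf1_flox and 0.43 in control. That range matched level only roughly: the median mean level was 667 in those genes and 1701 in the shared subunits.

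The large catalytic subunits are the pairs Polr1a and Polr1b, Polr2a and Polr2b, and Polr3a and Polr3b, each the largest and next largest subunit of its enzyme. Polr2a, whose product carries the heptad-repeat tail that couples transcription to RNA processing, was at 380.7, 183.7 and 257.0 in Terf1_flox libraries, against 177.7, 379.3 and 273.9 in control libraries. Between the groups it differed by -0.01 ± 0.51 on the log2 scale (limma adjusted p = 0.994). Polr2b was at 412.3, 301.7 and 817.7 in Terf1_flox libraries, against 488.2, 224.9 and 811.5 in control libraries (0.06 ± 0.58, limma adjusted p = 0.975). For both genes the groups covered nearly the same range, and the sign turned with the scaling (Polr2a with equal upper quartiles and quantile normalization, Polr2b with equal totals).

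Polr3a was at 11.97, 108.8 and 61.7 in Terf1_flox libraries, against 192.7, 174.4 and 120.0 in control libraries. It was the only large subunit without overlap, at -1.84 ± 0.91 on the log2 scale (limma adjusted p = 0.403). Without Terf1_flox replicate 1, where Polr3a had 11 reads, the value was -0.95. Polr3b was at 128.4 and 276.1 in Terf1_flox replicates 1 and 2 and had no read in replicate 3, where 3 reads would be 3.04 normalized counts; the control libraries held 219.9, 310.7 and 113.7. Its log2 fold change of -2.59 ± 1.87 (limma adjusted p = 0.577) rested on that library and was -0.07 without it. The polymerase III pair was thus low in different libraries, Polr3a in replicate 1 and Polr3b in replicate 3.

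Polr1a was at 28.3, 31.8 and 118.4 in Terf1_flox libraries, against 52.8, 167.8 and 45.0 in control libraries (-0.62 ± 0.94, limma adjusted p = 0.81). Polr1b was at 138.1, 3.08 and 25.3 in Terf1_flox libraries, against 67.7, 176.3 and 83.7 in control libraries (-2.04 ± 1.29, limma adjusted p = 0.52). The polymerase I pair varied strongly inside each group: the 3.08 of Polr1b in Terf1_flox replicate 2 was 3 reads, against 127 reads in replicate 1, and leaving out single libraries moved its log2 fold change between -3.29 and -0.74. Over the 6 large subunits 5 log2 fold changes were below 0 and 1 above, with a median of -1.23, against -0.24 over the 6016 tested genes in the same range of mean level (74.0 to 509). Their median log2 SD was 1.36 in Terf1_flox and 0.73 in control, against 0.88 in Terf1_flox and 0.68 in control over those 6016 genes. The median mean level was 143 in the large subunits and 205 in those genes.

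**Figure D2:**
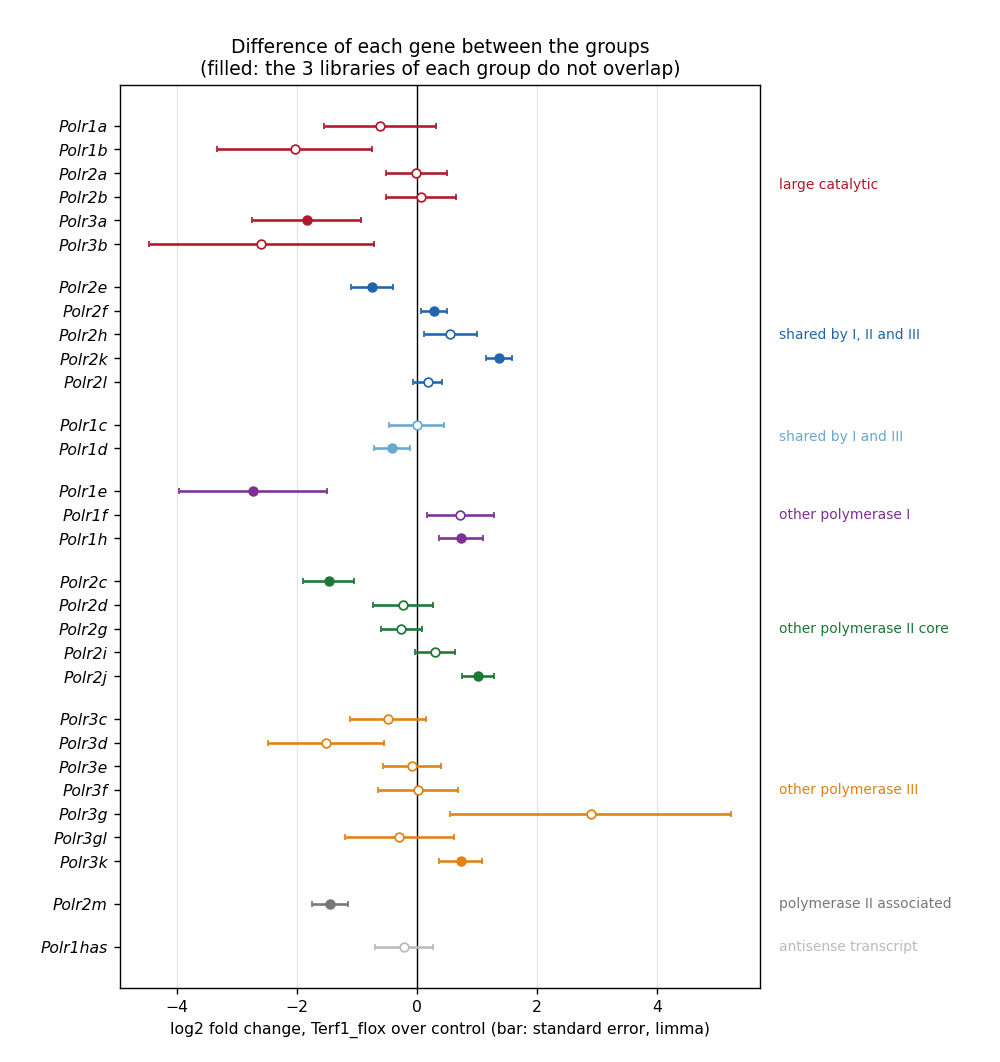
Log2 fold change of 30 polymerase genes, Terf1_flox over control, with limma's standard error, coloured by role. Filled points are genes whose groups do not overlap; Polr3g and Polr3b have the widest bars, and 4 of the 5 shared subunits lie above 0.

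Set against each other, the shared subunits were higher relative to the large ones in every Terf1_flox library than in any control library. The mean log2 level of the 5 shared subunits exceeded that of the 6 large ones by 3.70, 4.12 and 4.64 in Terf1_flox libraries, against 2.83, 2.19 and 2.95 in control libraries (means 4.15 ± 0.47 in Terf1_flox and 2.66 ± 0.41 in control, SD, n = 3 each). By class, the mean log2 level of the shared subunits was 10.43 ± 0.08 in Terf1_flox and 10.11 ± 0.08 in control libraries. That of the large subunits was 6.28 ± 0.39 in Terf1_flox and 7.45 ± 0.33 in control libraries. The larger part of the difference thus lay in the large subunits, which had few reads in single Terf1_flox libraries (Polr3b 0, Polr1b 3, Polr3a 11). The genes of both classes were chosen with earlier results known, so no p-value is given. In summed normalized counts the shared subunits came to 9519 ± 146 in Terf1_flox and 6712 ± 158 in control libraries, a ratio of 1.42 with no overlap. The large subunits came to 1095 ± 188 in Terf1_flox and 1360 ± 140 in control libraries (ratio 0.805, SD, n = 3 each), with overlapping groups. Of the difference of 2807 in the shared sums, Polr2k held by far the greater part, with means of 4178 ± 126 in Terf1_flox and 1631 ± 216 in control libraries. Of the others, Polr2f (2366 in Terf1_flox, 1956 in control), Polr2l (1809, 1593) and Polr2h (380, 259) had higher means in Terf1_flox. Polr2e had a lower one (785, 1273). The separation of the sums thus rested largely on Polr2k. Without Polr2k the difference of mean log2 levels was 3.75 ± 0.50 in Terf1_flox and 2.52 ± 0.39 in control libraries, with the large subunits as before.

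**Figure D3:**
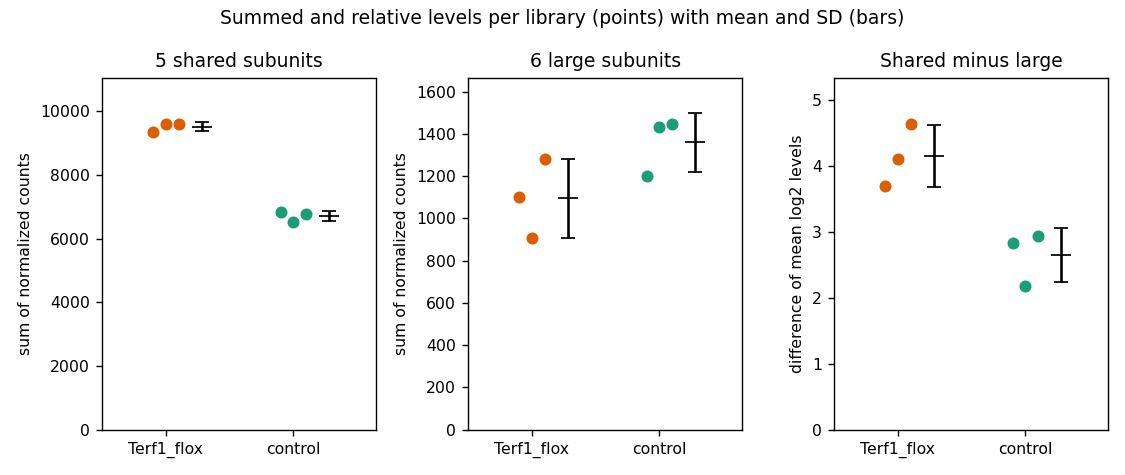
Summed normalized counts of the 5 shared subunits (left) and the 6 large subunits (middle), and the difference of their mean log2 levels (right), for each Terf1_flox and control library with mean and SD. The shared sums lie between 9350 and 9609 in Terf1_flox and between 6534 and 6833 in control, while the sums of the large subunits overlap. Polr2k holds by far the greater part of the difference between the shared sums.

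The median log2 fold change of the shared subunits exceeded that of the large ones by 1.51. That value depended on single genes and libraries: it was 0.90 without Polr3b, 0.92 without Terf1_flox replicate 1, 0.79 without Terf1_flox replicate 2, and 0.82 as the log2 ratio of summed levels. Divided by transcript length, which differs between the classes, the shared subunits summed to 13478 ± 179 normalized counts per kb in Terf1_flox and 8328 ± 292 in control, and the large ones to 230 ± 43.4 in Terf1_flox and 286 ± 30.2 in control (SD, n = 3 each). Polr2k, with transcripts of 545 bases, held most of that shared difference, at 7666 ± 231 per kb in Terf1_flox and 2993 ± 397 in control.

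In polymerase II, Polr2c and Polr2j code for the partners of the heterodimer on which the enzyme is assembled. Polr2j was at 2109, 2191 and 2017 in Terf1_flox libraries, against 1088, 813.0 and 1265 in control libraries. Polr2c was at 253.4, 688.6 and 351.2 in Terf1_flox libraries, against 966.8, 1136 and 1201 in control libraries. Neither gene's groups overlapped, and the partners differed in opposite directions. The log2 fold change was 1.02 ± 0.27 for Polr2j (limma adjusted p = 0.175, DESeq2 adjusted p = 0.0166) and -1.47 ± 0.42 for Polr2c (limma adjusted p = 0.196, DESeq2 adjusted p = 0.0457). The log2 ratio of Polr2j to Polr2c, a comparison chosen after the values were seen, was 3.05, 1.67 and 2.52 in Terf1_flox libraries and 0.17, -0.48 and 0.07 in control libraries. Polr1d and Polr1c, which form the matching heterodimer of polymerases I and III, did not separate the groups in this way: their log2 ratio was 1.06, -0.90 and 0.91 in Terf1_flox libraries and 0.55, 0.71 and 1.06 in control libraries. Both Polr2j and Polr2c overlap a gene on the opposite strand in the annotation (Lrwd1 and Dok4), as Polr1e, Polr2b, Polr2f, Polr2h, Polr2i and Polr3b overlap others of the table. The sources used here do not say whether counting used strand, so reads of such pairs cannot be told apart where the genes overlap. Polr3c overlaps a gene of the table on the same strand (Gm42783), where strand would not separate the reads.

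Polr1d was at 1152, 840.5 and 1175 in Terf1_flox libraries, against 1232, 1745 and 1268 in control libraries, without overlap (-0.42 ± 0.29, limma adjusted p = 0.563). Polr1c ranged from 552.6 to 1570 in Terf1_flox and from 609.4 to 1068 in control libraries, a log2 fold change of 0.00 ± 0.46 whose sign turned with the scaling.

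Polr2d and Polr2g form the stalk of polymerase II, where the new RNA leaves the enzyme, and Polr2i codes for a subunit that aids accurate transcription in yeast. Polr2d was at 372.5 to 1267 in Terf1_flox and 543.7 to 817.8 in control libraries, Polr2g at 877.8 to 1430 in Terf1_flox and 892.1 to 1496 in control, and Polr2i at 841.9 to 1287 in Terf1_flox and 644.9 to 1035 in control. All 3 overlapped between the groups, with log2 fold changes of -0.23, -0.26 and 0.30.

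Polr2m, whose product Gdown1 binds polymerase II and competes with the initiation factor TFIIF, was at 712.5, 1013 and 701.3 in Terf1_flox libraries, against 1859, 2027 and 2767 in control libraries. Every control value was above every Terf1_flox value. The difference was -1.45 ± 0.30 on the log2 scale (limma adjusted p = 0.115), and Polr2m passed with DESeq2 (adjusted p = 0.000653) and with limma where the minimum mean was 50 (adjusted p = 0.0442).

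Among the subunits found only in polymerase I, Polr1h codes for the subunit that aids RNA cleavage when the enzyme stalls. It was at 753.8, 638.3 and 839.0 in Terf1_flox libraries, against 478.6, 576.6 and 316.5 in control libraries, without overlap (0.73 ± 0.37, limma adjusted p = 0.412). The antisense transcript Polr1has was at 203.2 to 394.7 in Terf1_flox and 220.8 to 420.3 in control libraries (-0.22 ± 0.48, limma adjusted p = 0.874); without strand information its reads and those of Polr1h cannot be told apart where they overlap. Polr1e, part of the dimer that helps polymerase I to start and elongate, was at 1.09, 31.8 and 27.3 in Terf1_flox libraries, against 75.7, 82.9 and 87.6 in control libraries. Its groups were far apart, but the first value was a single read, and the log2 fold change of -2.73 ± 1.24 (limma adjusted p = 0.369) was -1.44 without that library. Polr1f, of the polymerase I stalk, overlapped between the groups, at 236.8 to 505.8 in Terf1_flox and 118.4 to 329.8 in control libraries (0.72 ± 0.56).

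Among the other polymerase III subunits, Polr3k codes for the RNA cleavage and termination subunit, the counterpart of Polr1h. It was at 1736, 1797 and 1771 in Terf1_flox libraries, against 1137, 657.7 and 1640 in control libraries. The groups did not overlap, and the Terf1_flox libraries differed among themselves by 1.73% of their mean (SD), the controls by 42.9% (log2 fold change 0.72 ± 0.36, limma adjusted p = 0.403; 0.37 without control replicate 2).

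Polr3g and Polr3gl code for alternative forms of the same subunit, of which POLR3G is known from human stem cells and POLR3GL from most differentiated cells. Polr3g was at 140.3, 401.3 and 4.05 in Terf1_flox libraries, against 270.9, 0 and 1.58 in control libraries. It was thus high in 2 Terf1_flox libraries and 1 control library and at 0 to 4 reads in the other 3, where 3 reads are at most 3.04 normalized counts. Its log2 fold change of 2.89 ± 2.34 was the least certain of the 31 and ran from 1.32 to 5.36 when single libraries were left out. Polr3gl was at 30.4 to 165.2 in Terf1_flox and 44.0 to 204.9 in control libraries (-0.30 ± 0.91).

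Polr3c, Polr3d, Polr3e and Polr3f all overlapped between the groups. Polr3c and Polr3f, which with Polr3g or Polr3gl form the initiation trimer, had log2 fold changes of -0.49 ± 0.63 and 0.02 ± 0.67. Polr3d and Polr3e, the pair that in yeast acts in termination and reinitiation, had -1.52 ± 0.96 and -0.08 ± 0.49. The signs of Polr3e and Polr3f turned with the scaling, Polr3e with equal upper quartiles and quantile normalization and Polr3f with equal totals. Polr3d was at 24.6 to 94.1 in Terf1_flox and 42.2 to 291.3 in control libraries, and Polr3e at 244.3 to 763.6 in Terf1_flox and 380.5 to 561.4 in control. Polr3c was at 93.6 to 254.0 in Terf1_flox and 164.5 to 441.3 in control libraries, and Polr3f at 110.8 to 353.5 in Terf1_flox and 104.8 to 334.7 in control.

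Grouped by enzyme, the subunits found only in polymerase I had 2 of 5 log2 fold changes above 0 and a median of -0.62. Those only in polymerase II had 3 of 7 and a median of -0.01, and those only in polymerase III 3 of 10 and a median of -0.39. With quantile normalization the medians were -0.36, 0.16 and -0.24, so that of polymerase II changed sign, as it did with equal upper quartiles (0.08). No test of a difference between the enzymes was made.

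Transcript length and GC content, taken from GENCODE release 21 for mouse, were available for 28 of the 31 genes. Across these 28 genes, which share the same libraries and are not independent, the log2 fold change had a Spearman rho of -0.42 with log2 length, -0.17 with GC content and 0.59 with the mean level. Over all 14495 tested genes with such values, rho was -0.002 with length and -0.25 with GC content. The shared subunits had a median transcript length of 773.5 bases and 51.7% GC, the large ones 4831 bases and 50.6% GC. The deviation of a gene from its mean, per 10 percentage points of GC content at equal length, was -0.19, -0.34 and -0.21 log2 units in Terf1_flox libraries and 0.12, 0.42 and 0.20 in control libraries. Among the 1450 genes with the lowest GC content (median 39.2%) the median log2 fold change was 0.48, and among the 1454 with the shortest transcripts (median 543.5 bases) it was 0.33. GC content thus moved with the groups in these libraries, and its part in the results was not tested beyond the correction that follows.

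**Figure D4:**
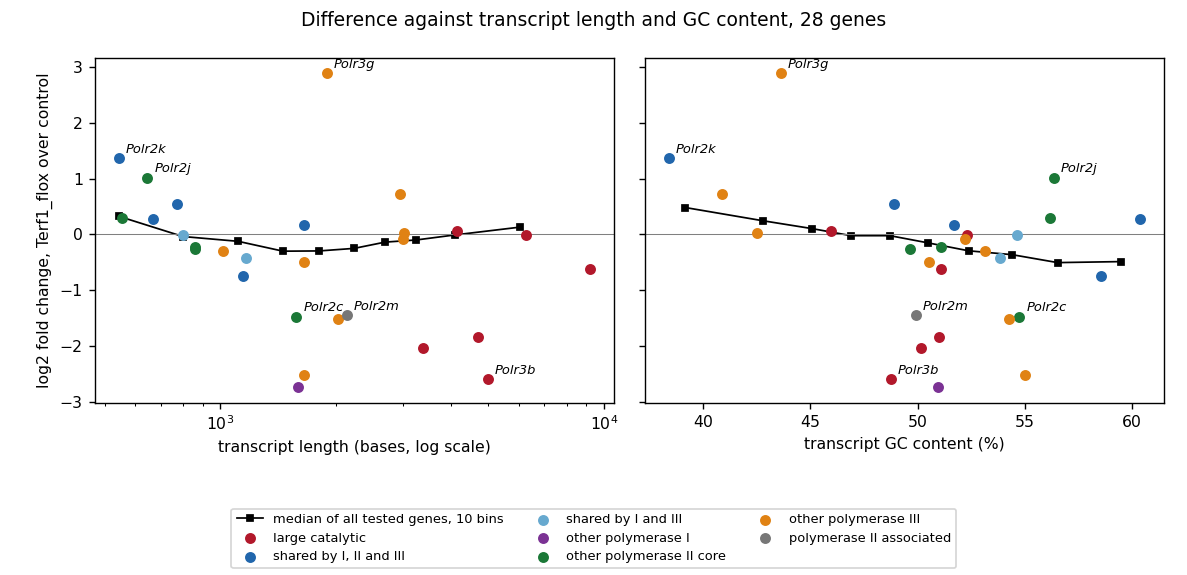
Log2 fold change, Terf1_flox over control, of 28 polymerase genes against transcript length (left, log scale) and GC content (right), coloured by role, with the median of all tested genes in 10 equal bins (black squares). Over all genes the median falls with GC content and is highest in the shortest transcripts (0.33); Polr2k has the lowest GC content of the 28, and Polr2j lies far above the median of genes of its GC content.

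With each library corrected for GC content and length, Polr2k, whose transcripts have 38.4% GC, had a log2 fold change of 0.50 in place of 1.36. Polr2j, with 56.3% GC and nearly the same length, had 1.16, Polr2c -0.99 and Polr2m -1.23. The median of the shared subunits was then 0.47 and that of the large subunits -1.27. No member had an adjusted limma p below 0.05 after the correction.

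The factors that recruit and regulate the 3 polymerases were counted in the same fit, and 0 of them passed limma over all genes tested; the unadjusted counts below stand against 5.7% of all genes higher and 8.43% lower. Of 7 polymerase I factors 1 was higher and 0 lower at an unadjusted limma p below 0.05 (median log2 fold change -0.52). That one was Taf1d, of the promoter selectivity factor SL1, at 959.4, 1344 and 1567 in Terf1_flox libraries, against 418.7, 489.0 and 351.3 in control libraries (1.60 ± 0.34, limma adjusted p = 0.121, DESeq2 adjusted p = 0.000737; 0.92 with GC content and length corrected). The SL1 partners Taf1c (0.66 ± 1.34), Taf1a (-1.63 ± 1.01) and Taf1b (-1.10 ± 0.82) overlapped between the groups.

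Of 18 general factors of polymerase II, 1 was higher and 0 lower (median 0.13). This was Gtf2a2, the small subunit of TFIIA, at 2578, 1779 and 2508 in Terf1_flox libraries, against 1484, 1324 and 1426 in control libraries (0.68 ± 0.26, limma adjusted p = 0.281). Gtf2b (0.76 ± 0.38), which positions the enzyme at the start site, Ercc3 (-3.03 ± 1.53), a DNA translocase of TFIIH, and Gtf2f1 (-1.06 ± 0.63), of TFIIF, were not below 0.05. Ercc3 was at 1.09, 261.7 and 41.5 in Terf1_flox libraries and 244.6, 228.8 and 224.2 in control libraries. Its value was -1.14 without Terf1_flox replicate 1, which held a single read, and -1.18 with DESeq2.

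Of 20 elongation factors 0 were higher and 2 lower (median -0.32). These were Leo1, of the PAF1 elongation complex, at 195.8, 204.2 and 335.0 in Terf1_flox libraries, against 500.5, 395.5 and 838.3 in control libraries (-1.21 ± 0.46, limma adjusted p = 0.29), and Nelfcd, of the pausing factor NELF (-1.34 ± 0.56, limma adjusted p = 0.329). Cdc73 (0.82 ± 0.37) and Ctr9 (0.63 ± 0.37) belong to the same complex as Leo1 and lay on the other side of 0, Cdc73 at -0.01 after the GC content and length correction.

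Of 17 polymerase III factors 0 were higher and 3 lower (median 0.24). The smallest p-values on the lower side belonged to Snapc2, of the complex that binds small nuclear RNA promoters, and Brf2, of the TFIIIB form used there. Snapc2 was at 2.18, 0 and 34.4 in Terf1_flox libraries, against 196.2, 233.5 and 54.5 in control libraries (-4.83 ± 1.46, limma adjusted p = 0.207), with 0 to 34 reads per Terf1_flox library. Brf2 was at 54.4, 4.11 and 1.01 in Terf1_flox libraries, against 65.1, 134.4 and 202.9 in control libraries (-3.88 ± 1.35, limma adjusted p = 0.258). It held 50, 4 and 1 reads in the Terf1_flox libraries, and its log2 fold change was -2.74 with DESeq2. Gtf3c3 (0.72 ± 0.45) and Bdp1 (0.70 ± 0.48), of TFIIIC and TFIIIB, had the smallest p-values on the higher side. Of 10 assembly factors 0 were below 0.05 in either direction (median -0.51). Ruvbl2 (-2.26 ± 1.10) and Gpn1 (-0.47 ± 0.50) had the smallest p-values on the lower side. On the higher side these were Gpn3 (2.31 ± 2.24) and Uri1 (0.21 ± 0.43). Ruvbl2 held 7 reads in Terf1_flox replicate 1 and was at -1.02 without that library. Gpn3 held 1 read in Terf1_flox replicate 2, 0 in control replicate 2 and 3 in control replicate 3.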

How the data were processed

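RNA-seq libraries of kidney epithelial cells, sorted by EpCAM antibody and KFP signal, were analysed, 3 Terf1_flox and 3 control. The deposited signal is a table of normalized counts per gene; the submitters' processing notes name DESeq2 and the mouse build GRCm39. For the aligner, counter, annotation and filters, nothing was stated per the labels. The steps of the low values gave whole reads for 100% of values (tolerance 0.01), and DESeq2's size factors computed from these reads matched those in the table, so the normalization rests on the median gene and not on total RNA. The recovered totals, 13582140 to 17680986 reads, set the depth; reads without molecular identifiers are not independent molecules, so counting floors (3 reads) cover counting error only.

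The test was limma 3.58.1 in R 4.3.3 with an intensity trend on log2(normalized count + 1), over 14822 genes with a mean of at least 10, with Benjamini-Hochberg adjustment over all of them. On this log2(value + 1) scale the pseudocount shrinks the change of low genes, but a single library near 0 can give a larger value than the count models do: Polr3b was at -2.59 here and at -0.66 with both edgeR and DESeq2, and Polr1b at -2.04 here, -0.95 with edgeR and -0.96 with DESeq2. Recovered reads were tested with edgeR 4.0.16 (quasi-likelihood) and DESeq2 1.42.0 (Wald). Median transcript length and GC content per gene came from GENCODE release 21 for mouse, matched by symbol, and the correction removed a natural spline (4 degrees of freedom) of each from every library's deviations. Alternatives were other pseudocounts, filters, scalings, a replicate block, Xist as a covariate and leaving out each library. The scripts were also run on simulated counts, and the share of changes they recovered is not given here. The members and lists were chosen with earlier results of these data known. All 31 members enter the counts and medians, and 1 is not reported here by itself; of each factor list the text names the 2 genes with the smallest p-value in each direction, where there are as many. Nothing says that libraries came from separate animals, so p-values measure the spread between libraries.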

Additional observations from a re-analysis of the deposited data

How the results depend on the processing

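Against 0 genes called with limma, 132 were called where the minimum mean was 50, 45 with equal library totals, 8 with quantile normalization, 1 with transcript length corrected and 772 with DESeq2; of the 31 polymerase genes, 2 were called at that minimum (Polr2k and Polr2m) and 4 with DESeq2. Scaling moved the median log2 fold change of all genes from -0.08 to -0.24 with equal totals, 0.01 with equal upper quartiles and 0.06 with quantile normalization. The shared subunits exceeded the large ones in median log2 fold change by 1.51, and by 0.91 with edgeR, 0.90 with DESeq2, 0.79 to 1.78 when single libraries were left out, and, in alternatives chosen after seeing the data, 0.90 without Polr3b and 0.82 as the log2 ratio of summed levels. The cause of these shifts was not tested. Replicate numbers did not pair the libraries, since same-numbered deviations had correlations of -0.05, 0.00013 and -0.0069; with the replicate block 0 genes were called, and the difference of 1.51 cannot change under it, since a block leaves every fold change of 3 against 3 libraries as it is.

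Of 1121 single-gene alternatives over 54 genes, 1064 kept their direction and 57 reversed, in 12 genes, none of them past limma's threshold. With equal totals Polr2b was at -0.11 and Polr3f at -0.16. With equal upper quartiles Polr1c was at 0.091, Polr2a at 0.081 and Polr3e at 0.012, and with quantile normalization at 0.057, 0.16 and 0.053. With edgeR Polr1c was at 0.14, Polr2a at 0.0081, Polr2d at 0.0023, Polr3e at 0.069 and Taf1c at -0.058, and with DESeq2 Polr1c was at 0.14, Polr2a at 0.0020, Polr3e at 0.063 and Taf1c at -0.052. With GC content corrected Polr1c was at 0.32, Polr2a at 0.17, Polr2b at -0.13, Polr3e at 0.10 and Polr3f at -0.35; with length corrected Polr2b was at -0.046. With both corrected, with or without the replicate block, Polr1c was at 0.18, Polr2a at 0.022, Polr2b at -0.19, Polr3e at 0.17, Polr3f at -0.28 and Cdc73 at -0.0088. Leaving out single libraries gave -0.48 to 0.28 for Polr1c, -0.52 to 0.041 for Polr1has, -0.30 to 0.25 for Polr2a, -0.43 to 0.49 for Polr2b, -0.77 to 0.11 for Polr2d, -0.45 to 0.37 for Polr3e, -0.45 to 0.46 for Polr3f, -0.93 to 0.44 for Polr3gl, -0.40 to 1.62 for Taf1c, -0.11 to 0.43 for Uri1 and -0.77 to 0.0048 for Gpn1. Depth limits the large subunits more than the shared ones. The large subunits held 882 to 1265 reads per Terf1_flox library and 1363 to 1834 per control library in all. The shared subunits held 8596 to 9484 and 6855 to 8575. Other genes were limited as well, with 1 read of Polr1e in Terf1_flox replicate 1 and 0 of Polr3g in control replicate 2.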
